A study of Mus musculus with 6 samples.

Results

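The CCN family is a set of secreted matricellular proteins, and with Ankrd1, Fhl1, Fhl2 and Amotl2 it holds genes known to answer to stretch, stiffness and cell shape. These 10 genes were described in DR4 mouse embryonic fibroblasts. Members were chosen by gene symbol, as every probe set (a group of short oligonucleotides for 1 transcript) that the platform annotation gives to Ccn1 to Ccn6 under present or older names (Cyr61, Ctgf, Nov, Wisp1, Wisp2 and Wisp3), Ankrd1, Fhl1, Fhl2 or Amotl2. They made 10 of 18193 genes with a single symbol, and 17 of 45137 probe sets, 13 of them on the MOE430A array (9 genes) and 4 on the MOE430B array (3 genes). The set was proposed with an earlier result of these arrays in view, the higher signal of Ankrd1 in replicate 1, so differences between replicate 1 and the others are given as a description. A fit across all probe sets is reported below by its counts, and nothing is read from it about the members.

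DR4 cells are fibroblasts from day 15 mouse embryos that serve as a feeder layer for embryonic stem cells, and the series profiled them beside stem cell lines (J1, R1, V6.5), which were not analysed here. All samples were DR4 cells with no treatment named in the labels. The medium was D-MEM with LIF and 15% serum, the dishes carried 0.1% gelatin, and the incubator was kept at 37 C with 5% CO2. DR4 mice are known for carrying resistance to several selection drugs, but the labels state no genotype, and they do not say whether the cells had been stopped from dividing or came from separate cultures. RNA of 3 replicates was hybridized to both array types, which makes 6 samples. The RNA of replicate 1 came from 12x10e6 cells (as the labels write it) and had a concentration of 2.4 ug/ul. For replicates 2 and 3 the cell number was 3x10e6 and the concentration 3.0 ug/ul. The sample volume was 13 ul for replicate 1 and 20 ul for replicates 2 and 3. The measured quantity is the linear signal intensity that the MAS5 software gives a probe set. Each array type was scaled separately, so a signal is compared only with the same probe set on the other arrays of its type.

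CCN proteins share a modular build, bind integrins, heparan sulphate proteoglycans and growth factors at the cell surface, and alter adhesion, migration and matrix synthesis. Ccn1 and Ccn2 are textbook targets of YAP and TAZ, coactivators that enter the nucleus of spread or tensed cells and work through TEAD DNA-binding proteins, and of the actin-sensitive factors SRF and MRTF. Ankrd1 encodes a nuclear and sarcomeric ankyrin repeat protein and is also a YAP target, Amotl2 encodes an angiomotin that holds YAP in the cytoplasm, and Fhl1 and Fhl2 encode four-and-a-half LIM domain proteins of the actin cytoskeleton.

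Promoter windows were taken from the RefSeq promoter table (build GRCm38.p6), because TEAD and SRF are the factors these genes are best known for. The table held 8 windows for 6 of the 10 members. Ccn2, Ccn3, Ccn4 and Ccn5 had no entry. The 5 printed all hold a match to a motif searched. The Ccn6 window and 1 Fhl1 window hold none and are not printed, nor is the second Fhl2 window, which has a CArG box. Each printed window is the 250 bases before the start site, 5′ to 3′ on the gene's strand. Capitals mark the TEAD core GGAATG on either strand, or the CArG box, the 10-base SRF element.
Ankrd1 (chr19:36119845-36120094, minus strand): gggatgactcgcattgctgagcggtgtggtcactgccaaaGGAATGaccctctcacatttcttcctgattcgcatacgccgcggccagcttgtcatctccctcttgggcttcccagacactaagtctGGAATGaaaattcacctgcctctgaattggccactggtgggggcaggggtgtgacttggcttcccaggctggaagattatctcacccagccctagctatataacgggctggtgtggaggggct
Ccn1 (chr3:145649986-145650235, minus strand): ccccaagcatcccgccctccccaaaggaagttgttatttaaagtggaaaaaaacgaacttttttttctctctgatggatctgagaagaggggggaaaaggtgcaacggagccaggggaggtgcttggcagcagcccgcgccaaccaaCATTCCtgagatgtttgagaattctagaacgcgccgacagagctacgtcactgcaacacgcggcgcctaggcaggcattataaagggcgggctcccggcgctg
Amotl2 (chr9:102717554-102717803, plus strand): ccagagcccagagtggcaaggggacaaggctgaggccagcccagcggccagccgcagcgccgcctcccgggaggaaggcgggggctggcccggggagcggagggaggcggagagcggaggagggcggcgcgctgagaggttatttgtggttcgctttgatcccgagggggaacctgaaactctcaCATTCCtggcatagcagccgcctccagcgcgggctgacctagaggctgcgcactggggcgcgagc
Fhl1 (chrX:56779433-56779682, plus strand): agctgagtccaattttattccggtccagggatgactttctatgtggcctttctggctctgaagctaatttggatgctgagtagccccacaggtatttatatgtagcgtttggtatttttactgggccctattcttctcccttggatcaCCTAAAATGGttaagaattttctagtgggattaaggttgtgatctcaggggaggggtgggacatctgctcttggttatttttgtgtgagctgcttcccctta
Fhl2 (chr1:43163962-43164211, minus strand): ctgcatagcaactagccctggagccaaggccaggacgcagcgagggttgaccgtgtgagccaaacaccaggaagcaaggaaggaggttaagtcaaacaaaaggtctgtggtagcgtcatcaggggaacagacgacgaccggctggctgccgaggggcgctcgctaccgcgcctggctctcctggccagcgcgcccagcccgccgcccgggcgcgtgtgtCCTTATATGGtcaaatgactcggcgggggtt

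The TEAD core lay in the Ankrd1 window at 2 places and in the Ccn1 and Amotl2 windows at 1 each, and 12.6% of the 32851 windows of the same length in the table held it. The CArG box was found in 1 of the 2 Fhl1 windows and in both Fhl2 windows, against 1.47% of all windows. The AP-1 letters TGANTCA, searched on both strands, were in none of the 8 member windows and in 6.75% of all windows. A match is a run of letters and was not tied to binding by any measurement here.

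The labelled cell type was checked against markers. A gene counted as above the floor (the median signal of each array) if any of its probe sets exceeded it on every array of a type. The share of all genes that did was not computed. All 10 measured fibroblast markers exceeded the floor in this way. Of cardiac muscle markers 2 of 10 were above it, of skeletal muscle 2 of 10, endothelium 3 of 7, epithelium 2 of 7, macrophage 2 of 6 and embryonic stem cell 1 of 7. No marker was listed at 0. The cardiac genes above the floor were Actc1 and Tnnt2, and the skeletal ones Ckm and Des. Tnnt2 was above it only on MOE430B, with 1466, 1546 and 1897, and was under the floor on MOE430A. These Tnnt2 signals were under the highest bacterial tryptophan control of each array (1989, 2348 and 2229). The epithelial genes above the floor were Epcam and Krt8, and the stem cell gene was Esrrb. On MOE430B Epcam had 17127, 36210 and 43842, and Esrrb had 4199, 5323 and 3494, all above that control. On MOE430A Epcam had 37, 80 and 69, under the floor. The brighter Esrrb probe set there had 776, 823 and 564, under the floor in replicate 3. Des had 1942, 805 and 208 on 1 of its probe sets and 1314, 991 and 1023 on the other, and Acta1 had 1921, 1166 and 704, all highest in replicate 1, while Ckm had 895, 1120.5 and 1178 on MOE430A, lowest in replicate 1. Myod1, Myog, Myh6 and Nppa lay under the floor on all arrays. On MOE430A the summed signal of the cardiac list was 2680.0, 4151 and 2889 in replicates 1, 2 and 3. That of the skeletal list was 5824, 4562 and 4763, and that of the fibroblast list 630214, 706224 and 749730. Most genes in the cardiac and skeletal sums lay under the floor, so these sums do not measure muscle content. Floors were 689, 685 and 734 for MOE430A, and for MOE430B they were 849, 917 and 907.

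The members were mostly well measured on MOE430A. Of the 13 probe sets 11 were above the floor on all 3 arrays, against 42.4% of all MOE430A probe sets, 11 exceeded the brightest of the bacterial tryptophan controls on all 3, against 41.5%, and the 2 that were not both belonged to Ankrd1. On MOE430B 3 of 4 were above the floor on all 3 arrays, against 37.2% of all, and 0 were above the tryptophan control on all 3, against 16.2%.

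**Figure D1:**
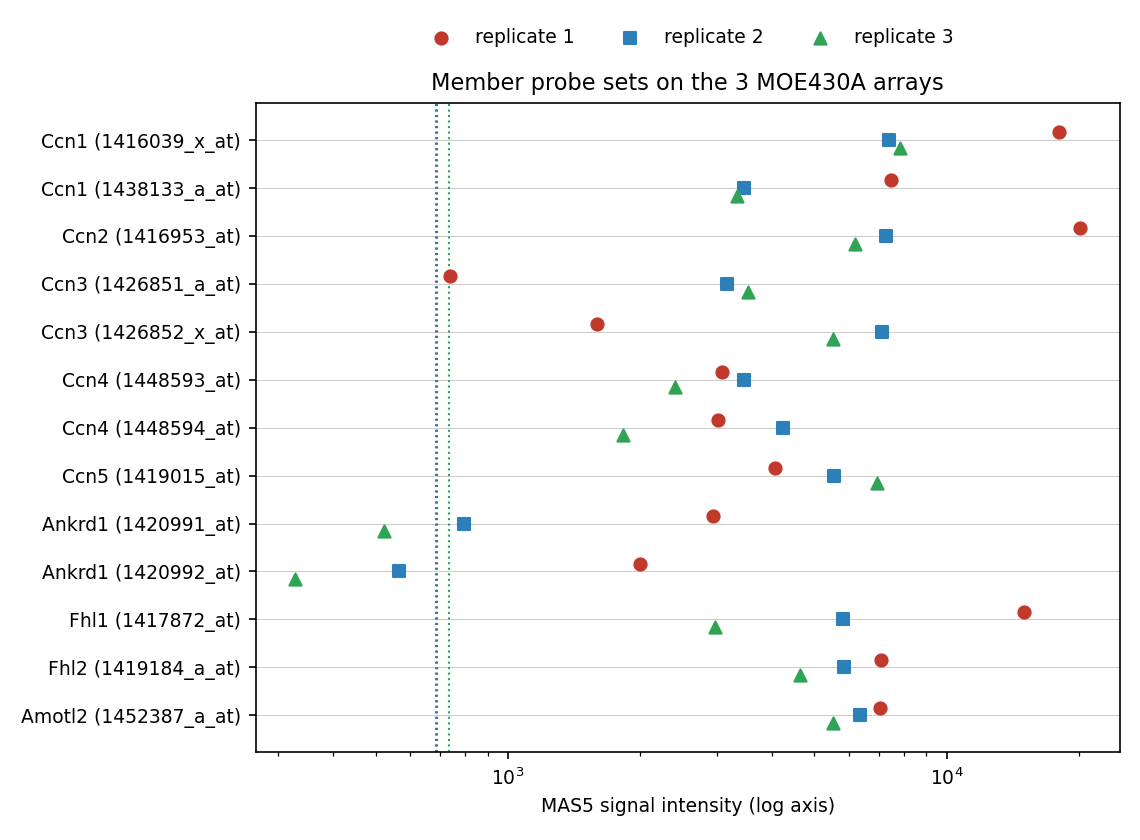
MAS5 signal (log axis) of the 13 member probe sets on the MOE430A arrays, 1 point per replicate; dotted lines mark each array's floor in the colour of its replicate (685 to 734). Replicate 1 stands to the right of the others for Ccn1, Ccn2, Ankrd1 and Fhl1 and to the left for Ccn3, and both Ankrd1 probe sets reach below the floor in replicate 3.

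Ccn2, the connective tissue growth factor of scarring and fibrosis, had signals of 20188.5, 7259.9 and 6188 in replicates 1, 2 and 3. Replicate 1 was 3.01-fold above the geometric mean of the other two, which lay 1.17-fold apart. Ccn1, an integrin ligand and immediate early gene, had 17990.5, 7393 and 7823 on probe set 1416039_x_at and 7482, 3456 and 3337 on 1438133_a_at. Replicate 1 was thus 2.37-fold and 2.20-fold above the others, and the 2 probe sets moved alike: after centring each on its mean over the arrays, their log2 values were never more than 0.10 apart. In both genes replicate 1 lay above both other arrays, as on 33.2% of all tested MOE430A probe sets, and replicates 2 and 3 lay close together. In bulk RNA, fewer cells of a type and less RNA per cell cannot be told apart.

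Ccn3, which encodes a family member often described as opposing Ccn2, ran the other way. On probe set 1426851_a_at its signal was 740.2, 3163 and 3525, and on 1426852_x_at it was 1596, 7127 and 5498. Replicate 1 was 4.51-fold and 3.92-fold below the others, and on the first probe set it stood just over its floor of 689. Ccn5, the member without the carboxy-terminal module of the others, had 4055, 5526 and 6934, and was 1.53-fold lower in replicate 1. On the log2 scale replicate 1 was 0.44 from replicate 2, and replicate 2 was 0.33 from replicate 3.

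Ccn4, known as a Wnt-induced member, had no side. Its signals were 3071, 3447 and 2411 on 1448593_at and 3009, 4248 and 1835 on 1448594_at. Replicate 1 lay between the others on both probe sets, and the highest and lowest values were 1.43-fold and 2.32-fold apart, replicate 2 over replicate 3. The second Ccn4 probe set was the only one of the 13 on which replicates 2 and 3 differed by more than 2-fold, as 4.66% of all tested MOE430A probe sets did.

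Ankrd1 had 2939, 795 and 522 on 1420991_at and 2005, 565 and 328 on 1420992_at. Only replicate 1 was above the floor on both probe sets; replicate 2 was above it on the first alone, and replicate 3 on neither. With the floor standing in for arrays under it, replicate 1 was at least 3.85-fold higher by 1420991_at, and by 1420992_at at least 2.83-fold. Centred log2 values of the 2 probe sets were within 0.09 of each other. Both probe sets were tested only because the mean of the 3 arrays cleared the filter, to which replicate 1 contributed most. The muscle genes Acta1 and Des, named above, were also highest in replicate 1, with Acta1 and 1 Des probe set under the floor in replicate 3. The skeletal gene Ckm was lowest in replicate 1 on both array types, with 1276, 3860 and 2568 on MOE430B. The cardiac gene Actc1 was lowest in replicate 1 too, with 860.4, 1374 and 1292. Their part in the Ankrd1 values was not tested.

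Fhl1, a LIM protein of muscle and of stress fibres, had 15012, 5798 and 2964, a 3.62-fold higher signal in replicate 1. Here replicates 2 and 3 were themselves 1.96-fold apart. The size thus depends on the array taken: 2.59-fold over replicate 2 and 5.07-fold over replicate 3. The Fhl1 probe set on MOE430B, given below, was not highest in replicate 1. Fhl2, its relative at focal adhesions, had 7093, 5844 and 4635, and Amotl2 had 7035, 6345 and 5512. Both covered a narrow range, with replicate 1 1.36-fold and 1.19-fold higher. The gap between replicates 2 and 3 was 1.26-fold for Fhl2 and 1.15-fold for Amotl2.

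**Figure D2:**
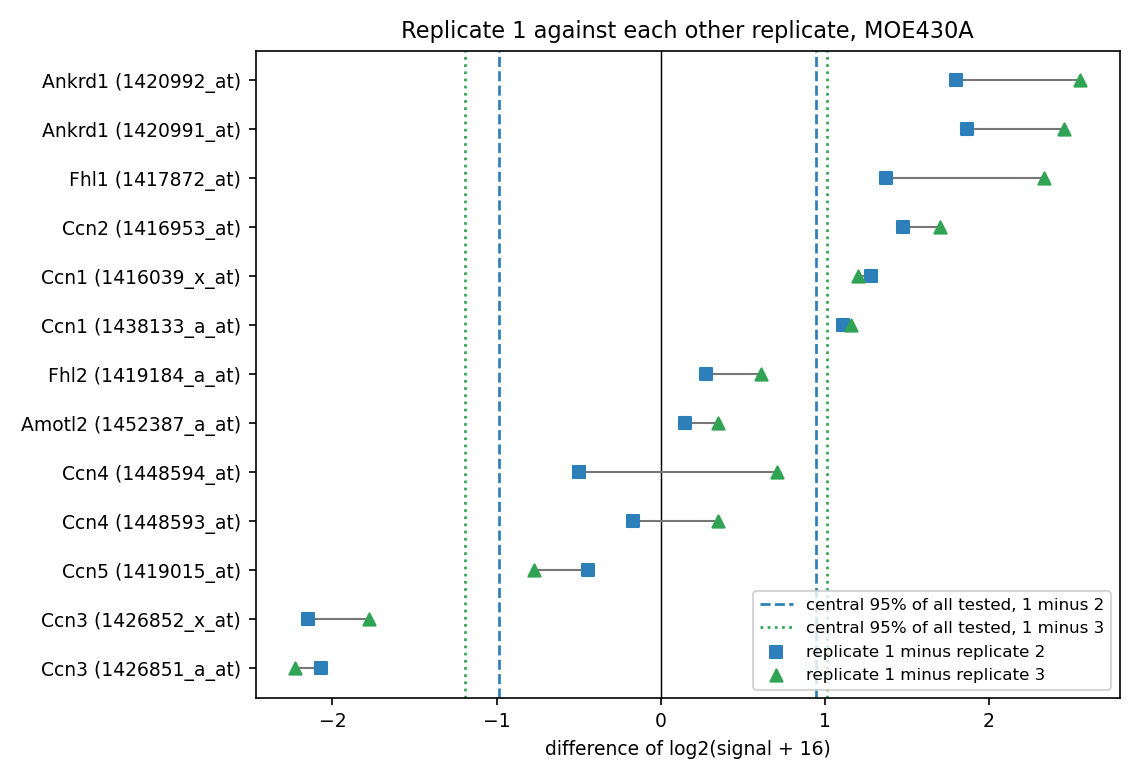
Difference of log2(signal + 16) between replicate 1 and replicate 2 (squares) or replicate 3 (triangles) for each member probe set on MOE430A; vertical lines enclose the central 95% of the same difference over 11066 tested probe sets (dashed against replicate 2, -0.98 to 0.95; dotted against replicate 3, -1.19 to 1.02). Ankrd1, Fhl1, Ccn2 and Ccn1 lie above the matching lines and Ccn3 below them on both arrays compared.

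Replicate 1 was above both other arrays on 8 of the 13 probe sets, against 33.2% of all tested, and below both on 3, against 35.6%. Its log2 difference was above 0 on 10, against 48.9%. It was more than 2-fold above both other arrays on 6 (Ccn1, Ccn2, Ankrd1, Fhl1), which 0.488% of all tested probe sets were, and more than 2-fold below both on 2 (Ccn3), which 1.45% were. In the fit across all 11066 MOE430A probe sets with a mean log2 signal above the floor's, limma called 78 (0.705%) at an adjusted p of 0.05, and among them were 6 member probe sets, 4 higher in replicate 1 (0.217% of all were called higher; Ccn2, Fhl1 and both of Ankrd1) and 2 lower (0.488%; both of Ccn3). The 2 probe sets of Ccn1 were not called. Since this contrast lay behind the choice of members, nothing is read from these counts. The log2 differences were 2.16 and 2.18 for Ankrd1, 1.85 for Fhl1, 1.59 for Ccn2, 1.24 and 1.14 for Ccn1, 0.45 for Fhl2, 0.25 for Amotl2, 0.09 and 0.11 for Ccn4, -0.61 for Ccn5, and -2.15 and -1.96 for Ccn3, with standard errors of 0.37 to 0.42. Those of Ankrd1 use the measured signals of arrays under the floor, so only the lower bounds given above hold as folds. Their median was 0.45, against -0.01 over all tested. With 1 array against 2, the error rests on the spread of the other two and on the prior. Under quantile normalization, and without the filter on low signals, limma called none of the 13 and none of all probe sets (lowest adjusted p 0.169 and 0.73), with 754 and 1297 of all below an unadjusted p of 0.05, while the 13 differences themselves moved by at most 0.053 and 0 on the log2 scale.

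Replicates 1 and 2 were scanned on 1 day for MOE430A and washed at 1 station; replicate 3 differed in both. Within that day, the log2 difference of replicate 1 minus replicate 2 was 1.87 and 1.80 for Ankrd1, 1.47 for Ccn2, 1.37 for Fhl1, 1.28 and 1.11 for Ccn1, and -2.07 and -2.15 for Ccn3. RNA controls on the same arrays also moved. The signal of the 3′ Gapdh control was 94411 in replicate 1 against 60801 and 56345, its ratio of 3′ to 5′ signal was 1.27, 1.16 and 0.85, and that of beta-actin was 1.05, 1.17 and 1.09. Their part in the members' differences was not tested, and cell number, RNA concentration, sample volume and replicate 1 cannot be told apart.

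The spread between arrays is a description too, since values of these arrays lay behind the choice of members. The SD of log2(signal + 16) over the 3 arrays had a median of 0.72 over the 13 probe sets, against 0.26 over all tested MOE430A probe sets, and the coefficient of variation a median of 54.2% against 17.9%. It was lowest for Amotl2 (0.18) and for 1 Ccn4 probe set (0.26), and highest for Ankrd1 (1.28 and 1.31). Of the 13, 12 were over the median of all tested, which 50% are by construction. With replicate 1 left out, 8 of 13 were over it, and the members' median SD was 0.24 against 0.20 for all tested.

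**Figure D3:**
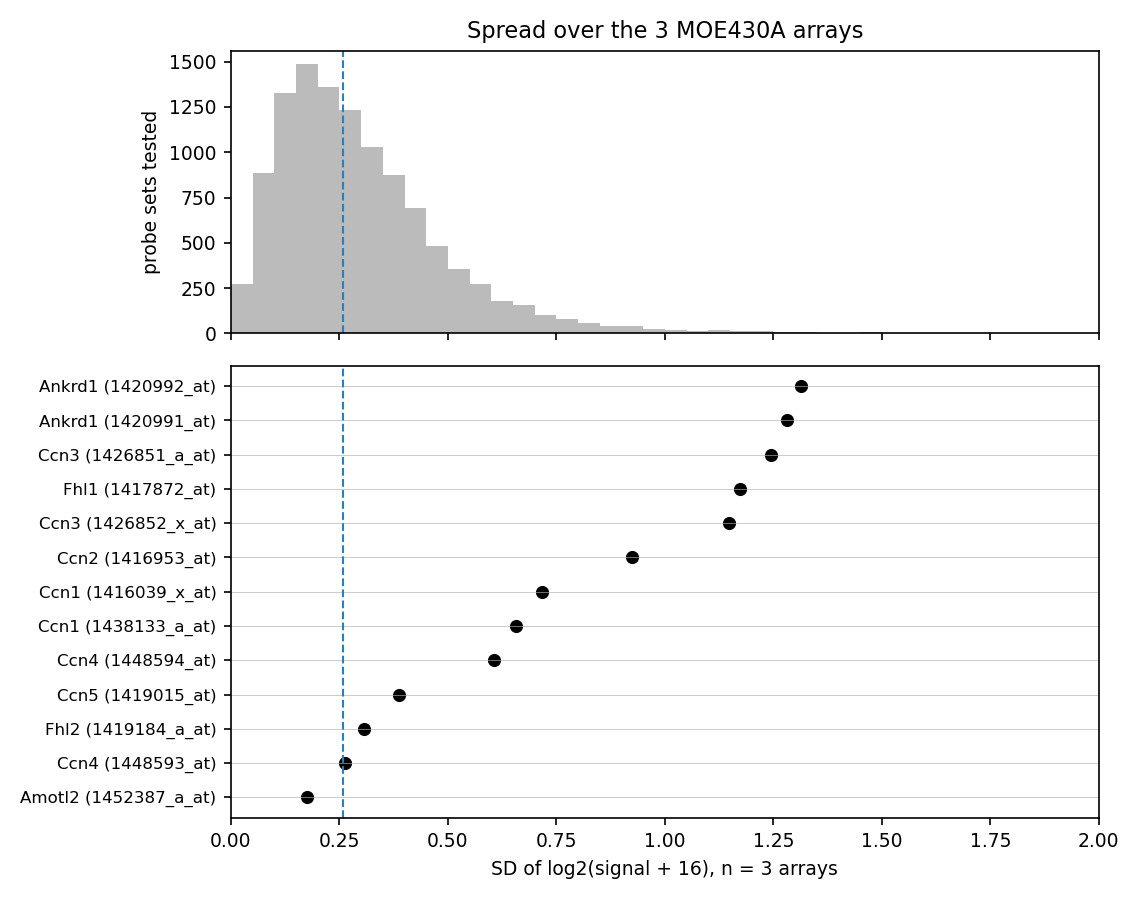
Top, histogram of the SD of log2(signal + 16) over the 3 MOE430A arrays for all tested probe sets; bottom, the same SD for each member probe set, with the median of all tested (0.26) as a dashed line. Amotl2 lies left of the line and Ankrd1, Ccn3 and Fhl1 lie farthest right, from 1.15 to 1.31.

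Of the 4 member probe sets on MOE430B, 0 exceeded the highest tryptophan control on all 3 arrays. Ccn6, a family member tied to skeletal disease in humans and measured on this type alone, had 1346, 1703 and 1026, under the highest tryptophan control (1989, 2348 and 2229) on every array, so its level cannot be set apart from that of a bacterial probe set. The 2 further Ccn1 probe sets had 1551, 1379 and 3369 on 1457823_at and 1472, 242 and 3155 on 1442340_x_at. Both were highest in replicate 3, unlike the MOE430A probe sets of Ccn1, and only replicate 3 passed the tryptophan control. The second Fhl1 probe set, 1459003_at, had 2245, 2119.9 and 2848, and was not highest in replicate 1. It was above the 75th percentile of signals on every array (2033, 2071 and 2037), with a log2 difference of -0.13. All 4 were in the fit of 10594 MOE430B probe sets. Of these, limma called 0% of all, with 767 at an unadjusted p under 0.05, and 0 calls also with a trended prior. Replicate 1 was above both other arrays on 0 of the 4, against 35.7% of all, and below both on 0, against 33.9%. Its difference was above 0 on 2, against 52.6%. Replicates 2 and 3 were over 2-fold apart on 2, both of Ccn1, against 12% of all. All MOE430B scans were made on 1 day, with a different station for replicate 1. Probe set names ending in _x_at mark probes that may also match other transcripts, which covers 1 of the 2 MOE430A probe sets of Ccn1 and of Ccn3 and 1 MOE430B probe set of Ccn1.

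**Figure D4:**
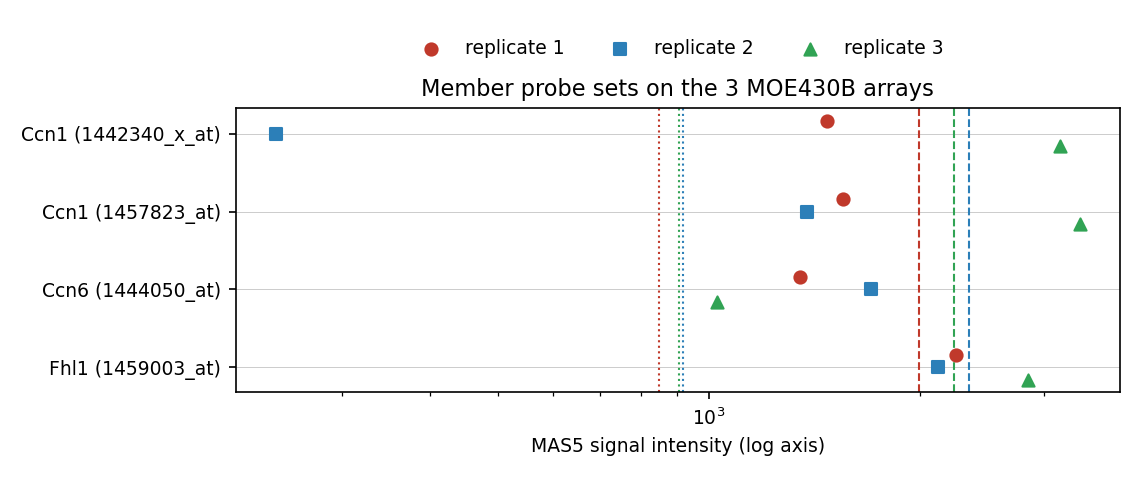
MAS5 signal (log axis) of the 4 member probe sets on the MOE430B arrays; dotted lines mark each array's floor and dashed lines its highest tryptophan control, in the colour of the replicate. Ccn6 lies between the floor and the control on all arrays, and both Ccn1 probe sets are highest in replicate 3.

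Genes of the receptors and of the pathway around the members were counted as the markers were, by any probe set above the floor. The share of all genes counted so was not computed, so these counts are a description. Of all probe sets, 42.4% on MOE430A and 37.2% on MOE430B were above the floor on every array. Of 13 genes that encode receptors or coreceptors reported for CCN proteins, 9 were above the floor. The median difference of replicate 1 was -0.21 over 20 MOE430A probe sets, against -0.01 over all tested. On the brightest probe set of each gene, the proteoglycan gene Sdc4 had 15463, 13243 and 22833, and the integrin genes Itgb1 and Itgav had 18334, 14415 and 16096, and 14291, 10772 and 11602. Of 22 measured genes of the Hippo pathway and of TEAD cofactors, 20 were above the floor. Their median difference was 0.00 over 28 MOE430A probe sets. Yap1 itself had 8856, 7928 and 10494, the kinase adaptor Mob1a had 4116, 4810.1 and 8256, and the FERM domain gene Frmd6 had 5067, 5695 and 5784. Yap1 in replicate 1 lay between the other arrays. The partner Wwtr1 (TAZ), picked out after its values were seen, had 4115, 3911 and 2505 on one probe set but 972, 2196 and 1965 on another, and these disagree on the side of replicate 1.

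Other genes of a published YAP target signature were counted in the same way. Of 18 genes besides the members, 15 were above the floor. On MOE430A 6 of 17 probe sets were higher in replicate 1 (48.9% of all tested were). Their median difference was -0.22 against -0.01 over all tested. The difference between this list and the members was not tested. Axl, a receptor tyrosine kinase, had 14289, 7608 and 8406, while Ccdc80, a matrix protein, had 15050.3, 23867 and 20042, and Myof, a membrane repair protein, had 4600.2, 4106 and 6375.

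In the list of SRF and MRTF targets, which also holds the factor genes Srf, Mrtfa and Mrtfb, all 17 measured were above the floor. On MOE430A 21 of 23 probe sets had a higher signal in replicate 1, against 48.9% of all tested, and the median log2 difference was 0.47, against -0.01. In limma, with 1 array against 2, probe sets of 2 genes were called higher in replicate 1, where 0.217% of all tested were, and 0 lower. The calponin gene Cnn1, of smooth muscle actin filaments, had 7562, 2997 and 1381 (adjusted p = 0.022), and the focal adhesion gene Zyx had 1834, 462 and 489 on a probe set that was under the floor in replicates 2 and 3 and cleared the filter only through replicate 1 (adjusted p = 0.00732); both calls were lost under quantile normalization and without the filter. The 3′ Gapdh control was highest on the same array, and its part here was not tested. A second Zyx probe set had 14104, 11396 and 9300.1. Acta2, Tagln and Cald1, actin and actin-binding genes picked out after their values were seen, had on their brightest probe sets 127380, 101911 and 60312, then 49995, 34298 and 16584, and then 40143, 30138 and 27861, all highest in replicate 1 and lowest in replicate 3. A further Cald1 probe set had 15391, 8896 and 13176, with replicate 2 lowest.

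**Figure D5:**
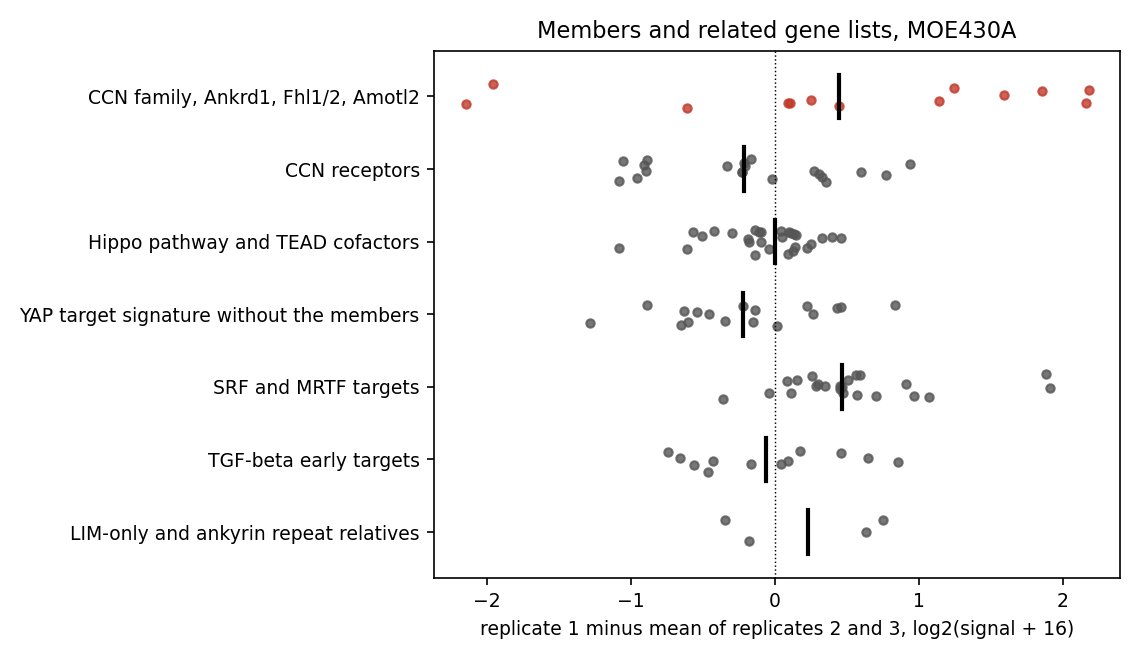
Replicate 1 minus the mean of replicates 2 and 3, log2(signal + 16), for each tested MOE430A probe set of the members (red) and of 6 related gene lists (grey); bars are medians and vertical scatter has no meaning. The SRF and MRTF list has its median at 0.47 and the receptor and YAP signature lists theirs at -0.21 and -0.22.

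Early TGF-beta targets were above the floor in 8 of 9 measured cases, with a median difference of -0.07. Tgfbi, a secreted matrix protein, had 5945, 8555 and 11598, Ltbp2 6559.9, 7057 and 11085, and Id1 4503, 3455 and 5557. Among LIM and ankyrin repeat relatives of the members, 3 of 9 were above the floor. Csrp1 had 11585, 9266 and 5105, highest in replicate 1 as Fhl1 was, while Csrp2 had 2256, 2945 and 2216 and Lmcd1 1019, 1483 and 1146. These lists were written with earlier results of these arrays known.

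Among tested probe sets with 1 gene symbol and of no member, the 5 closest in profile to the brightest Ankrd1 probe set were found. Closeness was the distance between centred log2 values over the 3 MOE430A arrays, which is a likeness over 3 points only. The Ankrd1 profile lay behind the choice of members and is under the floor in replicate 3, so the distances are a description. They belonged to Nme1 (distance 0.12; 11583, 3357 and 2358), to Gsto1 with 2 probe sets (0.28 and 0.29; 10785, 3878 and 2235 on the nearer), to Ddx39a (0.38; 2754, 1078 and 627) and to Bola2 (0.43; 1655, 648 and 418). Of the members, Fhl1 was at 0.36, with 0.0542% of all tested probe sets closer, and Ccn2 at 0.53, with 0.117% closer. The Ccn1 probe sets were at 0.89 and 0.92, with 0.533% and 0.669% closer. Fhl2 was at 1.41 and Amotl2 at 1.58, with 9.45% and 20.7% closer. The Ccn3 probe sets were at 3.56 and 3.37, with 99.8% and 99.7% closer.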

How the data were processed

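Biotin-labelled material from total RNA of DR4 cells of 3 replicates was put on both Affymetrix array types, MOE430A and MOE430B. The deposited values are signal intensities on a linear scale, made by the authors with MAS5, per the submitters' processing notes. For version and settings: not given in the sources used here. On every array the mean signal without the top and bottom 2% of probe sets was near 1500. Probe sets were named from GEO's platform annotation, updated by gene identifier against RefSeq, and 64 control probe sets per type were left out. On MOE430A 20380 probe sets had 1 symbol, 691 several and 1555 none here; on MOE430B these were 14661, 245 and 7605.

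From the deposited intensities, log2(signal + 16) was computed, a scale that understates changes of dim genes. The floor was the array's median. limma (3.58.1, R 4.3.3; lmFit, eBayes, Benjamini-Hochberg) set replicate 1 against replicates 2 and 3 within each type, on probe sets whose mean log2 signal exceeded that of the floor. The fit was tested on simulated data. Lower bounds put the floor in place of arrays under it, and other folds are ratios of signals.

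The members, the gene lists, the tests and the alternatives were chosen with earlier results of these data known. All member probe sets are named; from each list, called genes or else the 3 with the highest MOE430A mean above the floor, which ranks no transcript. Deposited instrument records gave scan day and station only. With so few arrays, precision is limited by their number. Separate cultures are not stated for the replicates; a p-value therefore covers the spread of these arrays alone, possibly technical.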

Additional observations from a re-analysis of the deposited data

How the results depend on the processing

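On MOE430A the count of 6 member probe sets called was 6 with a pseudocount of 1 or 64 and 8 with a trended prior, which added both of Ccn1. It was 0 without the filter on low signals and 0 under quantile normalization. The count over all probe sets went from 78 to 74, 86 and 164 under the pseudocounts and the trended prior, and to 0 without the filter and under quantile normalization; the cause was not tested, but the prior's degrees of freedom fell from 25.6 to 2.41 without the filter and to 6.67 under quantile normalization. On MOE430B it was 0 under each of these. Each of the 17 log2 differences kept its sign under them. Without replicate 2 or 3 a single array is set against another, with no test: 8 to 10 MOE430A and 1 to 3 MOE430B member probe sets were then higher in replicate 1. Both Ccn4 probe sets and all 4 on MOE430B then took opposite signs depending on the array left out, while Ankrd1, Fhl1, Ccn1 and Ccn2 on MOE430A stayed higher and Ccn3 lower. Members above the floor on MOE430B went from 3 to 1 at the 75th percentile, to 4 at a fixed signal of 200 and to 0 at the tryptophan control, and 3 to 4 with a replicate left out. On MOE430A they numbered 9 to 13 over the same settings. MOE430B probe sets over the median SD numbered 3, and 1 to 4 with a replicate left out. No paired analysis was possible because the array types hold different probe sets and are not compared. MOE430B signals near the tryptophan control limit what its 4 probe sets show.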
